A study of Mus musculus with 6 samples.

Results

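The ERBB receptors and their EGF-family ligands were examined by RNA-seq in tumor initiating cells (TICs) and in the remaining tumor cells of MMTV-PyMT mammary tumors. The set was chosen by gene name, with earlier results of these data known, and comprises 10 genes of the 41388 in the count tables. It holds 4 receptor genes (Egfr, Erbb2, Erbb3, Erbb4) and 6 ligand genes (Areg, Ereg, Btc, Hbegf, Nrg1, Tgfa). TICs were sorted as CD24+CD90+CD45- cells, and non-CD24+CD90+ tumor cells were the CD45- cells outside that gate, lacking either marker or both. The series description instead calls the comparison group CD24-CD90-, and the name used in the study's methods is kept here. Both groups came from transgenic mice of the strain FVB/N-TgN(MMTVPyVT)634Mul/J at an age of 12 weeks. The transgene, polyoma middle T antigen, is driven in mammary epithelium by a mouse mammary tumor virus promoter. No treatment is named. Each group had 3 samples made by pooling 4 cell sorts apiece, and 12 mice are counted for a set of triplicates. Whether the TIC and non-CD24+CD90+ samples came from the same mice is not given in the sources used here. A sorted pool can contain non-epithelial cells that share the surface markers, and in such bulk samples fewer cells of a type and less RNA per cell cannot be told apart.

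ERBB receptors are tyrosine kinases that pair on binding a ligand and then recruit adaptors that start the RAS-ERK and PI3K-AKT cascades. Egfr binds Areg, Tgfa, Ereg, Btc and Hbegf. Erbb3 and Erbb4 bind neuregulins such as Nrg1, and Erbb4 also binds Hbegf, Btc and Ereg. Erbb2 has no known ligand of its own and serves as the preferred partner of the others, whereas Erbb3 has little kinase activity and signals through its partner. The ligands are made as membrane-anchored precursors that ADAM proteases release. In the mammary gland the family takes part in ductal growth, where Areg is the main ligand of Egfr, and in lactation. Polyoma middle T itself recruits Src, Shc and PI3K, so that the cascades downstream of these receptors are also engaged by the transgene in this model.

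The upstream sequence of 3 members is shown, for the receptors Egfr and Erbb2, which were counted in every sample, and for the ligand Areg, which was counted in 3 samples only. RefSeq promoters on GRCm38.p6 were matched for 6 of the 10 members (Erbb4, Areg, Btc, Tgfa, Egfr and Erbb2), and each stretch gives the 250 bases before the annotated start, 5′ to 3′ on the strand of the gene. Capitals mark matches, on either strand, to the TATA box TATAAA, the full cAMP response element TGACGTCA and the GC box GGGCGG.
Egfr, chr11:16751953-16752202, plus strand: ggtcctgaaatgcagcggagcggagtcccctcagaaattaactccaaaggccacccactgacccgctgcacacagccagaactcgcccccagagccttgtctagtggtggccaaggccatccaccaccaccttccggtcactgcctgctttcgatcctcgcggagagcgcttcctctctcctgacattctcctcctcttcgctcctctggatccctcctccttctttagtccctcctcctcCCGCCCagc
Erbb2, chr11:98412234-98412483, plus strand: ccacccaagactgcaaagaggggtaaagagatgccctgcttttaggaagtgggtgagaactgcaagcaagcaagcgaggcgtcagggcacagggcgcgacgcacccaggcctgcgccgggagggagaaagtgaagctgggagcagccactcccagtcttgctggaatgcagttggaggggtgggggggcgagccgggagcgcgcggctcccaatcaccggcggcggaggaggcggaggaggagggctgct
Areg, chr5:91139349-91139598, plus strand: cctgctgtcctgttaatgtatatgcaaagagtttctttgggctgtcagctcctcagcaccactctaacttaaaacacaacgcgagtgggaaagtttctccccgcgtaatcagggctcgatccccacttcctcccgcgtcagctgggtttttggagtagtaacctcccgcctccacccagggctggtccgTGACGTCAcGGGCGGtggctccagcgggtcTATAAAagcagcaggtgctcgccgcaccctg
Among 32851 promoter stretches of this length, 12.4% held the TATA box, 1.55% the cAMP response element and 32.7% the GC box, and the motif matches shown do not overlap each other. Areg held all of them, Egfr only the GC box, which reads as its reverse complement on this strand, and Erbb2 none. In the stretches not shown, Tgfa held a GC box and Erbb4 and Btc held none of the motifs. GC content was 60.8% in Egfr, 66.0% in Erbb2 and 57.2% in Areg, against a median of 52.4% over all promoters. The same stretches had 11, 16 and 15 CpG dinucleotides, against a median of 6. These matches describe letters in a window and say nothing of binding in the sorted cells.

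Total counts were 6781239 to 8450038 in non-CD24+CD90+ tumor cells and 8114933 to 9100552 in TICs. Levels are given as CPM, the count of a gene scaled to the depth of its sample, after TMM normalization, which assumes that most genes do not differ between samples. A floor of 3 counts lay at 0.33 to 0.442 CPM. A count of 0 is a weak statement in these libraries, because many genes of moderate level were missing from individual libraries. Where 20 to 60 counts could be foreseen from the remaining libraries of a group, 19.1% to 39.7% of genes had none. That share was 39.7% in TIC replicate 3 and 31.9% in TIC replicate 2, and at most 27.2% in the other 4 samples.

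The transcripts of this family fell into a core found in every sample and a sparsely detected remainder. Egfr, Erbb2, Erbb3 and Hbegf were counted in all 6 samples, and no sample had fewer than 157 counts of any of them. Erbb4, Areg, Nrg1 and Tgfa had counts in 2 or 3 of the 6 samples, and Ereg and Btc had no count in any sample. More than 1 CPM in at least 3 samples, the filter applied before testing, was reached by 5 of the 10 members, namely Egfr, Erbb2, Erbb3, Hbegf and Nrg1. None of these 5 was called different in TICs by edgeR's exactTest with a threshold of 0.1 on the p-value adjusted after Benjamini and Hochberg, and 0 of 5 had an unadjusted p-value below 0.05. By the quasi-likelihood test of edgeR and by DESeq2 the counts were also 0 of 5 at either threshold. For comparison, 1.55% of the 12192 genes tested were called, 1.36% higher and 0.189% lower in TICs, and 7.85% had an unadjusted p-value below 0.05. With 5 genes tested, an absence of calls is close to this background.

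**Figure D1:**
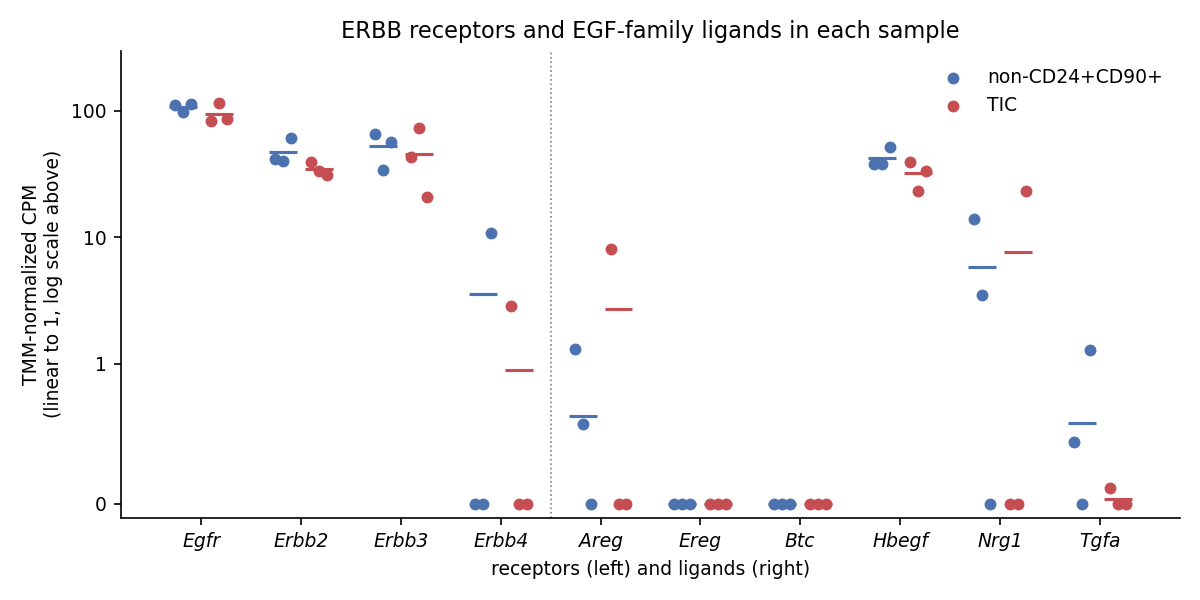
Level of each receptor and ligand gene in TMM-normalized CPM (vertical axis, linear up to 1 and logarithmic above) in the 3 non-CD24+CD90+ samples (blue) and the 3 TIC samples (red), with a line at each group mean. Egfr, Erbb2, Erbb3 and Hbegf were present in every sample, whereas the other members were at 0 in at least 3 samples.

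Egfr (ENSMUSG00000020122, GRCm38 chr11:16752203-16918158, plus strand), the receptor of Areg, Tgfa and related ligands, had the most counts of all members, although per length of exon it did not stand out from Erbb3, Erbb2 and Hbegf beyond their spread. Its raw counts were 768, 862 and 789 in non-CD24+CD90+ replicates 1 to 3 and 762, 985 and 658 in TIC replicates 1 to 3. After normalization these became 112.1, 97.8 and 112.9 CPM against 83.7, 114.8 and 86.8 CPM. TIC replicate 2 was the highest of all samples and the other TIC samples were the lowest, so that the groups overlapped. The means were 107.6 ± 8.5 CPM (SD, n = 3) in non-CD24+CD90+ tumor cells and 95.1 ± 17.1 CPM (SD, n = 3) in TICs. The log2 fold change, TICs over non-CD24+CD90+ tumor cells, was -0.18 (SE 0.33, adjusted p = 1, exactTest). Its 95% interval spanned folds of 0.567 to 1.38. Egfr was also the steadiest member, with a coefficient of variation of 13.7% over the 6 samples. The biological coefficient of variation in the fit estimates the spread between samples beyond counting error and is drawn toward genes of similar level. It can therefore exceed the observed variation of a gene. For Egfr it was 0.276, and 9.54% of the genes tested had a lower one. Among the 2857 genes within 2-fold of its mean level, 15.5% had a lower one.

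Erbb2 (ENSMUSG00000062312, chr11:98412470-98437716, plus strand), the ligandless partner receptor, was counted 283, 352 and 425 times in non-CD24+CD90+ replicates 1 to 3. In TIC replicates 1 to 3 it was counted 357, 288 and 236 times. The corresponding levels were 41.3, 39.9 and 60.8 CPM against 39.2, 33.6 and 31.1 CPM. Erbb2 was the one receptor whose groups did not overlap, with every TIC sample below every non-CD24+CD90+ sample. The gap was narrow, at 39.9 CPM for the lowest non-CD24+CD90+ sample and 39.2 CPM for the highest TIC sample, and it was present as well under library size alone and under median-ratio size factors. Of all genes tested, 7.55% were lower in TICs without overlap. The means were 47.3 ± 11.7 CPM and 34.7 ± 4.2 CPM (SD, n = 3 each), with a log2 fold change of -0.45 (SE 0.49, adjusted p = 1, exactTest). An exact permutation test on log2 CPM gave p = 0.1 (two-sided), the smallest value that 3 samples against 3 allow. Groups without overlap always give this value, so the test adds nothing to the separation stated above. The 95% interval of the fold change, 0.377 to 1.42, included both a marked decrease and a moderate increase.

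Erbb3 (ENSMUSG00000018166, chr10:128567523-128589652, minus strand), the neuregulin receptor that signals through its partners, varied most among the abundant members. It had 450, 301 and 400 counts in non-CD24+CD90+ replicates 1 to 3 and 392, 628 and 157 counts in TIC replicates 1 to 3. The highest level of all samples, 73.2 CPM in TIC replicate 2, and the lowest, 20.7 CPM in TIC replicate 3, were both in TICs, with 43.1 CPM in TIC replicate 1. The non-CD24+CD90+ samples lay between them at 65.7, 34.2 and 57.2 CPM. Group means were 52.3 ± 16.3 CPM and 45.7 ± 26.3 CPM (SD, n = 3 each), and the coefficient of variation over all samples was 40.7%. The log2 fold change was -0.20 (SE 0.53, adjusted p = 1, exactTest), with a 95% interval of 0.426- to 1.79-fold. Its sign rested on individual samples, since it became 0.17 without TIC replicate 3 and 0.01 without non-CD24+CD90+ replicate 1. Among the 4033 genes within 2-fold of its mean level, 53.1% had a lower biological coefficient of variation, so that this spread was ordinary for its abundance.

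Erbb4 (ENSMUSG00000062209, chr1:68032186-69108059, minus strand), the other neuregulin receptor, was found in a single sample of each group. It had 75 counts in non-CD24+CD90+ replicate 3 and 26 counts in TIC replicate 1, corresponding to 10.7 and 2.86 CPM, and none elsewhere. It did not pass the filter and was not tested.

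**Figure D2:**
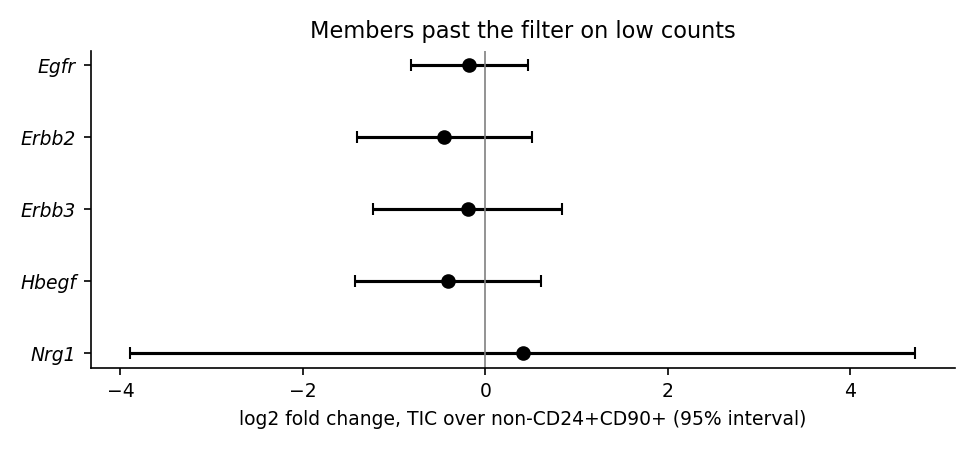
Log2 fold change of the 5 members past the filter on low counts, TICs over non-CD24+CD90+ tumor cells (horizontal axis), with points at the estimate and bars for the 95% interval from the negative binomial fit with 3 samples per group. All intervals include 0, and that of Nrg1 is the widest, from -3.90 to 4.71.

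Hbegf (ENSMUSG00000024486, chr18:36504927-36515805, minus strand), a heparin-binding ligand of Egfr and Erbb4, was the one ligand counted in every sample. Counts were 262, 337 and 360 in non-CD24+CD90+ replicates 1 to 3 and 358, 198 and 256 in TIC replicates 1 to 3. Levels were 38.2, 38.2 and 51.5 CPM against 39.3, 23.1 and 33.8 CPM. TIC replicate 1 lay above 2 of the 3 non-CD24+CD90+ samples, and the other TIC samples lay below all of them. The means were 42.7 ± 7.7 CPM and 32.1 ± 8.3 CPM (SD, n = 3 each). The log2 fold change was -0.41 (SE 0.52, adjusted p = 1, exactTest), with a 95% interval of 0.372- to 1.52-fold.

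Nrg1 (ENSMUSG00000062991, chr8:31814551-32884029, minus strand), the ligand of Erbb3 and Erbb4, was present or absent from sample to sample in both groups. It had 95 and 31 counts in non-CD24+CD90+ replicates 1 and 2, 175 counts in TIC replicate 3 and no counts in the other 3 samples. These were 13.9, 3.52 and 23.1 CPM. The sample with the highest Nrg1 level, TIC replicate 3, was the one with the lowest Erbb3 level, and it also had the largest share of missing genes (39.7%). The sample with the next highest Nrg1 level, non-CD24+CD90+ replicate 1, went the other way. Its Erbb3 level of 65.7 CPM was exceeded only in TIC replicate 2. A relation between these genes was not tested. The log2 fold change was 0.41 (SE 2.20, adjusted p = 1, exactTest) and the 95% interval ran from 0.0672- to 26.2-fold, so that no difference of ordinary size was detectable. Of the genes tested, 97.9% had a lower biological coefficient of variation than Nrg1, at 1.86.

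Areg, Ereg and Btc, ligands of Egfr that lie near each other on chromosome 5, were scarce or not found. Areg (ENSMUSG00000029378, chr5:91139599-91148432, plus strand) had 9 and 5 counts in non-CD24+CD90+ replicates 1 and 2, 74 counts in TIC replicate 1 and none in the other 3 samples. This equals 1.31, 0.567 and 8.13 CPM, and the TIC mean of 2.71 CPM came from 1 sample. Ereg (ENSMUSG00000029377, chr5:91074622-91093646, plus strand) and Btc (ENSMUSG00000082361, chr5:91357261-91402994, minus strand) had 0 counts in all 6 samples, which limits their level to about 0.33 to 0.442 CPM per sample by counting error alone. Tgfa (ENSMUSG00000029999, chr6:86195223-86275719, plus strand), another Egfr ligand, had 3 and 9 counts in non-CD24+CD90+ replicates 1 and 3 and 1 count in TIC replicate 1. None of these ligands passed the filter, and no fold change is given for them.

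To compare levels between genes, CPM was divided by the length of the merged exons, 11326 bases for Egfr, 5210 for Erbb2, 6016 for Erbb3 and 4834 for Hbegf. Over all 6 samples Egfr had 8.95 ± 1.23 CPM per kb (SD), Erbb3 8.15 ± 3.31, Erbb2 7.87 ± 2.01 and Hbegf 7.73 ± 1.90 CPM per kb. These 4 neighbours in the order did not differ beyond their spread. Egfr exceeded Erbb3 in 4 of 6 samples, Erbb3 exceeded Erbb2 in 2 of 6, and Erbb2 exceeded Hbegf in 3 of 6. Below them came Areg, which Hbegf exceeded in 6 of 6 samples. In TIC replicate 1 there was no clear gap, with Areg at 6.69 CPM per kb beside 7.16 for Erbb3. The next highest value of Areg was 1.08 CPM per kb, in non-CD24+CD90+ replicate 1. Areg averaged 1.37 CPM per kb, Nrg1 0.652, Erbb4 0.183 and Tgfa 0.0471 CPM per kb, each with an SD larger than its mean, and their order is not resolved. Transcripts shorter than the merged exons would raise the values, most for genes with long merged exons such as Egfr.

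Per kb of merged exon, the mean shares of Egfr, Erbb2 and Erbb3 in the receptor RNA were thus almost even in both groups. This depends on the long merged exons of Egfr, which had 101.4 CPM over all samples against 41.0 CPM for Erbb2 and 49.0 CPM for Erbb3. Egfr made up 35.0 ± 4.1% of the receptor level per kb in non-CD24+CD90+ tumor cells and 37.8 ± 6.3% in TICs (SD, n = 3 each). Erbb2 made up 33.0 ± 4.7% and 30.4 ± 6.9%, and Erbb3 31.2 ± 6.2% and 31.5 ± 11.1%. Erbb4 contributed 2.71% in non-CD24+CD90+ replicate 3, 1.04% in TIC replicate 1 and nothing elsewhere. The most uneven sample was TIC replicate 3, with 44.9% Egfr and 20.2% Erbb3, while TIC replicate 2 had the reverse tilt, with 42.3% Erbb3 and 22.4% Erbb2.

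**Figure D3:**
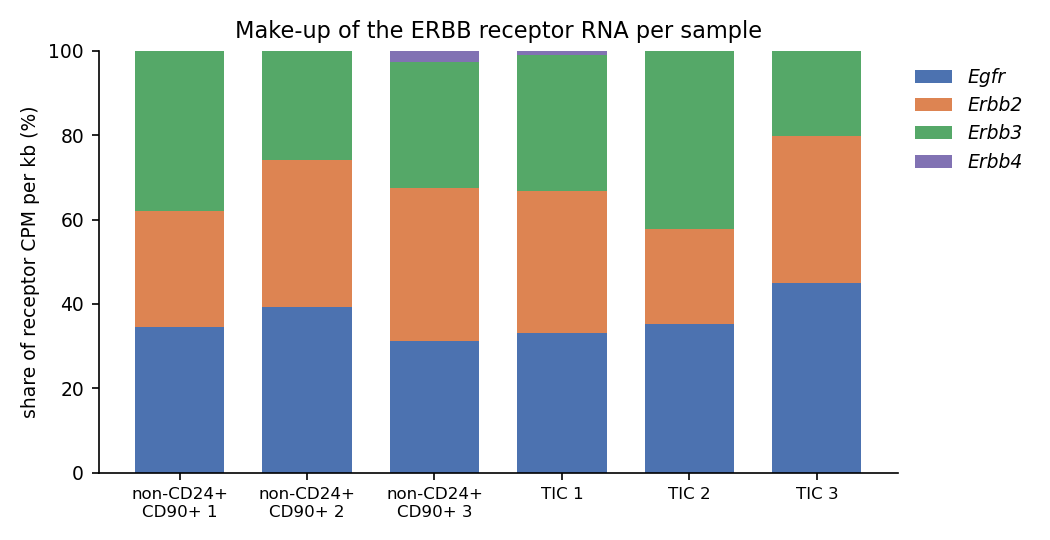
Share of each receptor gene in the summed receptor level, in percent of CPM per kb of merged exon (vertical axis), for each of the 3 non-CD24+CD90+ and 3 TIC samples. Egfr, Erbb2 and Erbb3 each took between 20.2% and 44.9% of every sample, and Erbb4 at most 2.71%.

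Ratios of receptors within a sample do not depend on normalization, and 3 such ratios were tested with a two-sided exact permutation test adjusted over the 3. The log2 ratio of Egfr over Erbb2 was 0.09 ± 0.28 in non-CD24+CD90+ tumor cells and 0.33 ± 0.34 in TICs (SD, n = 3 each, exact permutation p = 0.4, adjusted p = 0.9). That of Egfr over Erbb3 was 0.18 ± 0.39 and 0.31 ± 0.75 (n = 3 each, exact permutation p = 0.9, adjusted p = 0.9). That of Erbb2 over Erbb3 was 0.09 ± 0.48 and -0.02 ± 0.86 (n = 3 each, exact permutation p = 0.9, adjusted p = 0.9). The smallest p-value the design allows is 0.1, so this test could not have fallen below 0.05. For each of the 3 ratios the SD within either group was larger than the difference between the group means.

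The genes whose pattern over the 6 samples was most like that of a receptor were sought among 8761 genes with a mean of at least 10 CPM, by the root mean square difference of centred log2 CPM. For Egfr they were Csad (0.043), Kdm2a (0.070) and Chd4 (0.081). For Erbb2 they were Rpl13 (0.043), Atp5d (0.065) and Vav3 (0.079). The nearest genes to Erbb3 were farther away, at 0.165 for Pcmtd2, 0.169 for Mcoln1 and 0.175 for Idh1. All points share the 6 libraries, and the likeness is a description only.

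The wider pathway was read from lists of genes that act beside the receptors, also chosen with earlier results of these data known. Of 86 such genes 78 passed the filter, and the calls were 1 higher and 1 lower in TICs, beside the background of 1.36% and 0.189% given above. By the quasi-likelihood test 0 of the 78 were called and by DESeq2 3. An unadjusted p-value below 0.05 was found for 8 of 78 genes, against 7.85% of all genes tested. The median log2 fold change was -0.14 over the 78 genes and -0.01 over all 12192.

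Among the other EGF-family ligands only Nrg2, a further neuregulin, passed the filter. It had 520, 387 and 682 counts in non-CD24+CD90+ replicates 1 to 3 and 449, 337 and 330 counts in TIC replicates 1 to 3, and its groups overlapped. Its means of 72.5 ± 27.0 CPM and 44.1 ± 5.0 CPM (SD, n = 3 each) corresponded to a log2 fold change of -0.72 (SE 0.44, adjusted p = 0.843, exactTest). Egf had 1 count in non-CD24+CD90+ replicate 2 and 21 counts in TIC replicate 2, Nrg4 had 6 counts in a single sample, and Epgn and Nrg3 had no counts.

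Of the proteases and carriers that release the ligands, 9 of 10 passed the filter and 1 was called. Adam12, a metalloprotease that can cleave Hbegf and other ligand precursors, was counted 85, 171 and 268 times in non-CD24+CD90+ replicates 1 to 3 and 798, 429 and 700 times in TIC replicates 1 to 3. Every TIC sample was above every non-CD24+CD90+ sample, at 76.7 ± 23.2 CPM against 23.4 ± 13.4 CPM (SD, n = 3 each). Its log2 fold change was 1.71 (SE 0.52, adjusted p = 0.0922, exactTest), close to the threshold of 0.1. The call was lost without non-CD24+CD90+ replicate 1 (adjusted p = 0.463) or 2 (0.454) and without TIC replicate 1 (0.208) or 3 (0.289), by exactTest, while the fold change kept its sign. Adam17 (log2 fold change -0.44, SE 0.42) and Adam10 (-0.29, SE 0.56), the main sheddases of this family and named for that role after their values were seen, and Adam15 (-0.16, SE 0.37), the most abundant of the list, were not called. The largest estimates belonged to scarcely counted genes, Adam9 at 2.18 (SE 1.63) and Rhbdf2 at -2.12 (SE 1.85). The list's median was -0.27.

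Inhibitors and turnover factors of the receptors all passed the filter, 16 of 16, and none was called, with 1 gene at an unadjusted p-value below 0.05 and a median log2 fold change of -0.32. Nedd4, a ubiquitin ligase and the most abundant of them, had a log2 fold change of 0.67 (SE 0.31, adjusted p = 0.515, exactTest). Cbl, the ubiquitin ligase that marks active Egfr for degradation, was at 1.31 (SE 1.19), and Lrig2, of a family of receptor-binding membrane proteins, at -1.21 (SE 1.15). None of 12 adaptors was called either, with a median of 0.14 and values of 0.05 (SE 0.41) for Grb2, 1.22 (SE 0.55) for Nck2 and 1.27 (SE 1.75) for Sos2.

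The kinase chains below the receptors gave no calls, for 10 of 10 RAS-ERK genes and 13 of 13 PI3K-AKT-mTOR genes past the filter. Their medians were -0.08 and -0.27, with 0 and 1 genes at an unadjusted p-value below 0.05. Mapk3, the kinase ERK1 and the most abundant gene of its chain, had 387.3 ± 56.2 CPM in non-CD24+CD90+ tumor cells and 347.9 ± 34.3 CPM in TICs (SD, n = 3 each). The kinase Araf was at a log2 fold change of 0.54 (SE 0.39). Pik3r1, the regulatory subunit of PI3K, was at -0.38 (SE 0.28) and the kinase Akt2 at 1.29 (SE 1.01).

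Transcripts that ERK signaling is known to induce held the one lower call, with 17 of 19 genes past the filter. Dusp5, a nuclear phosphatase of ERK, was counted 1814, 1441 and 1051 times in non-CD24+CD90+ replicates 1 to 3 and 760, 809 and 537 times in TIC replicates 1 to 3. All TIC samples were below all non-CD24+CD90+ samples, at 82.9 ± 11.7 CPM against 192.9 ± 62.6 CPM (SD, n = 3 each). The log2 fold change was -1.22 (SE 0.33, adjusted p = 0.0407, exactTest). The call was lost by exactTest without non-CD24+CD90+ replicate 1 (adjusted p = 0.496) or 2 (0.102) and without TIC replicate 2 (0.101) or 3 (0.173), with the sign kept. In this list 4 of 17 genes, Dusp5 among them, had an unadjusted p-value below 0.05 by exactTest, against 7.85% of all genes tested in either direction. The other 3 also lay lower in TICs without overlap, as did Ier3 (unadjusted p = 0.0878, exactTest). Of all genes tested, 7.55% were lower without overlap, and the share meeting both conditions was not computed. Neither these 3 genes nor Ier3 were called, and Dusp6, Etv5 and Ier3 are named after their values were seen. Phlda1, the most abundant of the list, had a log2 fold change of -0.59 (SE 0.27), Dusp6, a cytoplasmic ERK phosphatase, -0.61 (SE 0.29) and Etv5, an ETS transcription factor, -0.92 (SE 0.40), with adjusted p-values by exactTest of 0.504, 0.579 and 0.438. Spry4 and Spred2, inhibitors of the cascade, had larger SEs, at 1.29 (SE 1.53) and -1.29 (SE 1.74). The median of the list was -0.35, and 10 of its 17 genes had a negative estimate, against 6131 of the 12192 genes tested. Positive estimates, 7 of 17, included those of Junb (0.36, SE 0.34), Spry2 (0.33, SE 0.47), Jun (0.18, SE 0.29) and Ccnd1 (0.10, SE 0.45). Fos was at -0.13 (SE 0.30) and Egr1 at -0.40 (SE 0.31). None of these was called, and they too are named after their values were seen.

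**Figure D4:**
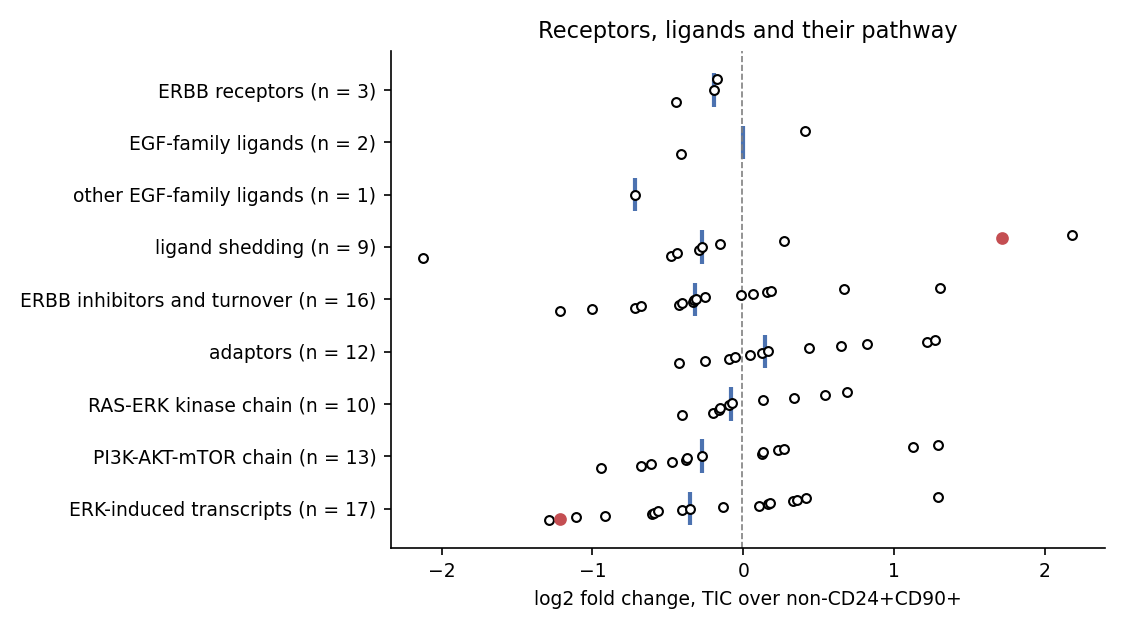
Log2 fold change, TICs over non-CD24+CD90+ tumor cells (horizontal axis), of each gene past the filter on low counts in the receptor, ligand and pathway lists, with n genes per list. Filled red points are the 2 called genes, Adam12 (1.71) and Dusp5 (-1.22), blue bars are list medians and the dashed line is the median of all genes tested, -0.01.

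Markers of several cell types were summed in each sample, to stand beside the levels of the receptors and ligands. The summed level of 9 luminal epithelial markers was 5939 to 6302 CPM in non-CD24+CD90+ tumor cells and 3925 to 4632 CPM in TICs. All 9 had negative estimates, with 0 of 9 called and 2 at an unadjusted p-value below 0.05. Krt18, the most abundant, had 2657 ± 161 CPM against 1645 ± 153 CPM (SD, n = 3 each). All 7 fibroblast markers had positive estimates and 4 were called higher (Dcn, Col1a1, Col1a2 and Col3a1), with sums of 2738 to 3139 CPM against 7333 to 10719 CPM. Pericyte markers summed to 440.4 to 509.9 CPM against 859.6 to 1417 CPM, with positive estimates for 6 of 6 and only Rgs5 called. Endothelial markers summed to 115.7 to 121.4 CPM against 148.2 to 542.3 CPM. Their estimates were positive for 6 of 6, with 0 of 6 called and 4 at an unadjusted p-value below 0.05. Over all genes tested, 1.36% were called higher, 0.189% were called lower and 7.85% had an unadjusted p-value below 0.05. A positive estimate was found for 49.7% of them.

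Basal or myoepithelial markers overlapped, at 594.0 to 1253 CPM against 624.9 to 738.9 CPM. They had 4 positive and 3 negative estimates, with 0 of 7 called and 1 at an unadjusted p-value below 0.05. Macrophage markers summed to 61.5 to 82.7 CPM against 81.5 to 146.4 CPM, with Lyz2 called higher of 6 (8.57 ± 3.86 CPM against 55.1 ± 24.4 CPM, SD, n = 3 each). The other 3 macrophage markers past the filter had negative estimates, at -0.31 (SE 1.18) for Cd68, -1.68 (SE 2.26) for Csf1r and -0.01 (SE 0.45) for Cd14, and none was called. There were 33 counts of Ptprc in non-CD24+CD90+ replicate 1 only and no count of Adgre1. Of 4 adipocyte markers only Fabp4 was counted, at 56.5 to 136.7 CPM against 191.9 to 1225 CPM, and called higher, with Adipoq, Plin1 and Lep at 0. T cell markers summed to at most 1.57 CPM in non-CD24+CD90+ tumor cells and 10.8 CPM in TICs, with Cd3e and Cd4 at 0. The part of these cell types in the levels of the receptors and ligands was not tested.

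**Figure D5:**
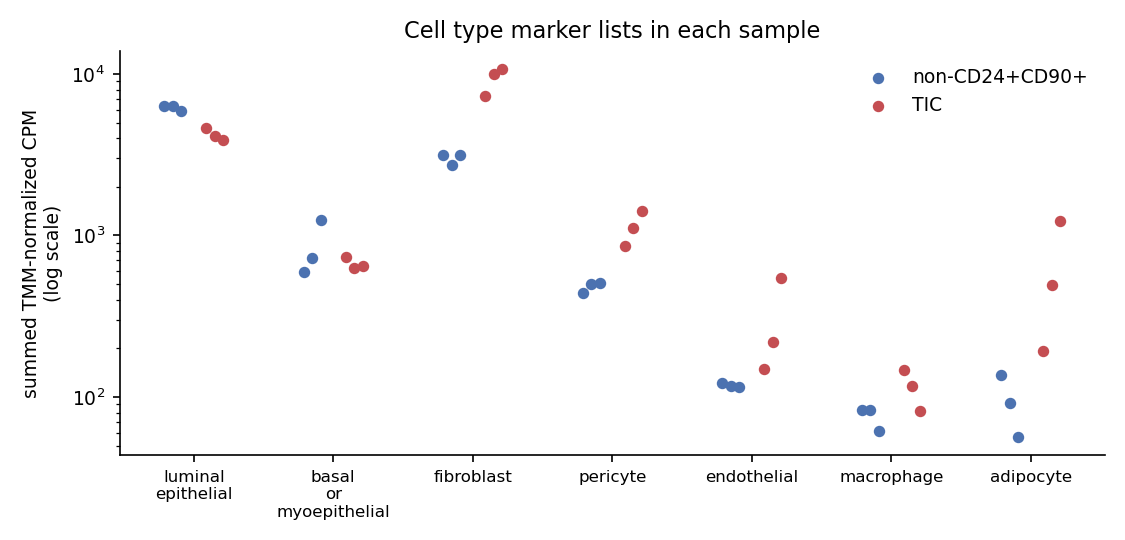
Summed TMM-normalized CPM of 7 cell type marker lists (vertical axis, logarithmic) in the 3 non-CD24+CD90+ samples (blue) and the 3 TIC samples (red). Luminal epithelial sums were lower in every TIC sample (3925 to 4632 against 5939 to 6302 CPM) and fibroblast sums higher (7333 to 10719 against 2738 to 3139 CPM). The adipocyte points are the level of Fabp4 alone, the only gene of that list with counts.

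Annotated genes with counts overlap 3 of the members, and whether counting used the strand is not given in the sources used here. Egfros, an antisense gene that overlaps Egfr, had 243 counts over all samples. Its highest count in a sample was 124, against 658 to 985 counts per sample for Egfr. Mien1, which overlaps Erbb2 on the opposite strand, had 4082 counts over all samples. Its highest count in a sample was 1007, against 236 to 425 counts per sample for Erbb2. Gm26578, opposite to Nrg1, had 99 counts, all of them in 1 sample. Reads from these overlaps could be assigned to either gene or dropped, so that the levels of Egfr, Erbb2 and Nrg1 carry this uncertainty.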

How the data were processed

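Sorted tumor cells were measured by RNA-seq, with 3 TIC samples and 3 non-CD24+CD90+ samples. Per the submitters' notes, the authors trimmed reads with Trimmomatic (version 0.32), aligned them to GRCm38 with STAR (version 2.4.0), removed reads not mapped uniquely with SAMtools (version 1.1) and used HTSeq to obtain the deposited values, which are raw counts per Ensembl gene without normalization. Removing shared reads undercounts genes with close copies. The annotation release and strand setting are not given in the sources used here. Gene names and positions were taken from GENCODE M21, in which 40254 of 41388 genes matched, the others holding 0.17% of counts.

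The 12192 genes that exceeded 1 CPM in 3 or more samples were normalized by TMM. They were compared with exactTest in edgeR (version 4.0.16, R version 4.3.3). Common, trended and tagwise dispersions were estimated in turn, and the test used the tagwise ones, which are drawn toward the trend. The study's methods name edgeR, a CPM filter and exactTest, whereas the filter's value, TMM and the kind of dispersion were chosen here. The common dispersion was 0.678. Benjamini-Hochberg adjustment covered all genes tested, with a threshold of 0.1. SEs and 95% intervals came from the negative binomial fit. The scripts were tested on simulated data. The alternatives tried were edgeR's quasi-likelihood test, DESeq2 (version 1.42.0), other size factors, filters and dispersions, a threshold of 0.05 and leaving out each sample.

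The named genes were the 10 members with their value in every sample, the called genes of each pathway list, its 2 largest other fold changes and its most abundant gene, the called and most abundant genes of marker lists, and the 3 genes most like each receptor. Marker lists are summarised by their sums and calls. A few results for genes that this rule names, and 1 marker list, are not reported here. Members and lists were chosen with earlier results of these data known. Replicate numbers were given in sample order and pair nothing. Samples are labelled as separate and described as pools from separate sorts, so that p-values measure the spread between such pools. The 6 samples were treated as independent, although both cell fractions may stem from the same mice. Depth limits counts to a floor of 0.33 to 0.442 CPM, and floors cover counting error only. Columns of no other sample were present.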

Additional observations from a re-analysis of the deposited data

How the results depend on the processing

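None of the members was called under any of the alternatives. The log2 fold changes of Egfr, Erbb2 and Hbegf stayed negative in all 13 alternatives that gave them, from -0.33 to -0.08, -0.56 to -0.23 and -0.57 to -0.22. That of Erbb3 changed sign in 2 of 13, with values from -0.71 to 0.17 when a sample was left out (0.17 without TIC replicate 3 and 0.01 without non-CD24+CD90+ replicate 1). That of Nrg1, which passed the filter in 10 alternatives, changed sign in 1, with values from -0.17 (without non-CD24+CD90+ replicate 3) to 1.01. Leaving out a sample moved the difference in the log2 ratio of Egfr over Erbb3 between -0.29 and 0.42, that of Erbb2 over Erbb3 between -0.51 and 0.35 and that of Egfr over Erbb2 between 0.08 and 0.42. The exact permutation test of these ratios had too few samples to pass a threshold of 0.05.

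The number of genes called was 189, against 50 with the quasi-likelihood test, 306 with DESeq2, 112 with no filter on low counts, 116 at an adjusted p-value below 0.05 and 72 (without non-CD24+CD90+ replicate 3) to 323 (without TIC replicate 1) with a sample left out. The number of pathway genes called was 2, against 0 with the quasi-likelihood test, 1 with library size alone, 0 with no filter on low counts, 1 at an adjusted p-value below 0.05 and 0 to 2 with a sample left out. Adam12 lost its call in 7 of 13 alternatives (adjusted p-values over all 13 of 0.0421 to 0.463) and Dusp5 in 6 of 13 (0.0239 to 0.496), each with its sign kept. The cause was not tested. No paired analysis was possible because neither the labels nor the study's methods say which TIC sample shares mice with which non-CD24+CD90+ sample, and the replicate numbers used here only follow the sample order. The low members, Erbb4, Areg, Ereg, Btc and Tgfa, are limited by depth and by the counts of 0 in these libraries, and the tested members by the spread between 3 samples.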
